A study of Mus musculus with 3 samples.

Results

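The cells described here were tag-low dendritic cells: barcodes of the ear-draining lymph node with few antibody tags for CD11b, CD8a and CD301b, some tag for CD172a, and little mRNA of the genes Ccrl2, Galc, Gpr65 and Flrt3, together called the Ccrl2 program. A kept cell had 80% or more of its hashtag UMIs (unique molecular identifiers, each counting 1 captured molecule) on 1 hashtag, 500 or more genes, 1000 or more mRNA UMIs and at most 10% mitochondrial UMIs. A member had, in addition, tag UMIs below 150 for CD11b, below 120 for CD8a and below 50 for CD301b, 40 or more for CD172a, fewer than 5 UMIs of Tnfsf4, fewer than 5 of C1qa, C1qb and C1qc together, and fewer than 3 of the program genes together. Of 5019 kept cells, 1041 (20.7%) were members. Starting from the kept cells, 3761 passed the CD11b limit, 2626 then the CD8a limit, 2005 the CD301b limit, 1444 the CD172a limit, 1364 the Tnfsf4 limit, 1360 the C1q limit and 1041 the program limit.

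All cells came from mice of the genotype SiglechiCreTg/0 ROSA26LoxP-STOP-LoxP-RFP Tnfsf4KI/+, given MC903, a vitamin D analogue that inflames skin, on days 0, 2 and 4 and killed for sorting on day 5. Cre driven by Siglech, a gene of plasmacytoid dendritic cells, turns on RFP for good, so RFP marks past Siglech expression. BFP served as the second reporter; the mice carried 1 knock-in allele of Tnfsf4, which encodes the costimulatory ligand OX40L. The sort gate was B220-, XCR1-, CD326-, MHC class II high and CD11c low to intermediate, which was meant to leave out Langerhans cells and type 1 conventional dendritic cells. The double positive cells (BFP+RFP+) and those with RFP alone (BFP-RFP+), BFP alone (BFP+RFP-) or no reporter (BFP-RFP-) were hashtagged and pooled, 10400 of them with BFP alone and 5200 of each other kind. Values for the 4 populations are given in the order of their hashtags, 1 to 4. The number of mice behind each population is not given in the sources used here, and all cells came from treated mice. Each population was 1 sample in 1 capture, so no test was run, no spread between animals is known, and every value below is a description.

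Migratory dendritic cells carry antigen from the skin along lymph vessels to the draining node, guided by the chemokine receptor CCR7, and present it to T cells on MHC class II. In doing so they make chemokines that attract T cells, among them Ccl5, Ccl17 and Ccl22. Leukotriene C4 synthase, the product of Ltc4s, makes leukotriene C4, the first of the cysteinyl leukotrienes, which are lipid mediators of allergic inflammation. Arc is best known as an activity-regulated gene of neurons. Nfe2l3 encodes a transcription factor of the CNC family, to which NRF2 also belongs.

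The rule rests on short oligonucleotides carried by the antibodies, shown here because they alone assigned each cell to a population and to a tag class. Each is 15 bases long, 5′ to 3′, and all of its bases are read as the barcode, so none is capitalised. Among the 28 pairs of these tags, the sequences differ at 7 to 14 bases.
Hashtag 1, BFP+RFP+: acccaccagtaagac
Hashtag 2, BFP-RFP+: ggtcgagagcattca
Hashtag 3, BFP+RFP-: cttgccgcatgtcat
Hashtag 4, BFP-RFP-: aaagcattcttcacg
CD11b: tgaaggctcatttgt
CD8a: tacccgtaatagcgt
CD172a: gattcccttgtagca
CD301b: cttgccttgcgattt

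Members made up 16.1% of the kept BFP+RFP+ cells (135 of 841, exact Clopper-Pearson 95% interval 13.6 to 18.7%), 23.0% of BFP-RFP+ cells (226 of 982, 20.4 to 25.8%), 23.2% of BFP+RFP- cells (506 of 2184, 21.4 to 25%) and 17.2% of BFP-RFP- cells (174 of 1012, 14.9 to 19.7%). The shares were thus lowest in the double positive and double negative populations and closer to each other elsewhere. All intervals in the text cover counting error only. The tags that the rule limits differed among the populations. Over all kept cells the median CD8a tag was 121 UMIs in BFP+RFP+, 63 in BFP-RFP+, 42 in BFP+RFP- and 40 in BFP-RFP- cells. BFP-RFP- cells had the highest upper quartiles of the CD301b and CD11b tags, at 108 and 201 UMIs. The part of these tags in the shares was not tested.

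Members held 13668751 mRNA UMIs, with a median of 12853 UMIs and 3000 genes per cell and 2.20% mitochondrial UMIs. The 3 groups they were compared with were defined by tags as follows. CD8a-high cells (922) had 120 or more CD8a tag UMIs and under 150 for CD11b. CD11b-high cells (940) had 150 or more for CD11b and under 120 for CD8a. Tag-low cells with the program (319) passed every member limit but had 3 or more UMIs of the program genes. The first 2 groups also had the Tnfsf4 and C1q limits of the members. Median depth was 15725.5 UMIs in CD8a-high, 16029.5 in CD11b-high and 13677 in tag-low program cells. The limits count raw UMIs, and membership varied with depth without a single direction: members were 23.1%, 29.7%, 26.4%, 17.9% and 6.57% of the kept cells in 5 equal groups of rising depth. The CD172a tag was below 40 UMIs in 40.3% of the shallowest and 5.38% of the deepest group.

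**Figure D1:**
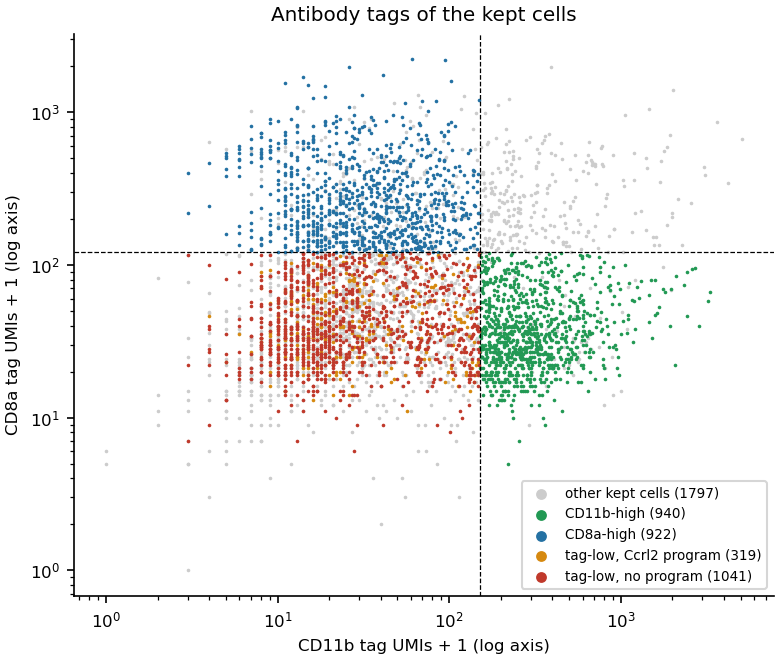
CD11b tag UMIs (x) against CD8a tag UMIs (y), both plus 1 on log axes, for each of the 5019 kept cells, with the limits of 150 and 120 as dashed lines. The 1041 members (red) and the 319 tag-low program cells (orange) lie in the lower left field, which holds 2626 kept cells. The others there (grey) failed a further limit. No gap separates members from the CD8a-high (blue) or CD11b-high (green) cells.

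Within the tag-low field the median tags of members were 21 UMIs for CD11b, 37 for CD8a, 85 for CD172a and 28 for CD301b. BFP+RFP+ members had the highest median CD8a tag, at 53 UMIs against 33 to 39 in the other populations, and BFP-RFP- members the highest median CD172a tag, at 94.5 against 73 in BFP+RFP+ members. Levels are given from here on as CPM, the UMIs of a gene summed over the cells of a group and scaled to counts per 1000000 mRNA UMIs. Ccl5 in the cells just inside and just outside each limit differed most at the Tnfsf4 and CD172a limits. Its level was 4009 CPM in members with 100 to 149 CD11b tags and 4299 CPM in cells with 150 to 199. It was 2976 CPM in members with 90 to 119 CD8a tags and 2535 CPM with 120 to 149. With 40 to 49 CD301b tags it was 5613 CPM and with 50 to 59 it was 5110 CPM. With 40 to 49 CD172a tags it was 5115 CPM, against 3656 CPM with 30 to 39. By program sum, Ccl5 stood at 7131 CPM at 2 UMIs and 6523 CPM at 3 UMIs. By Tnfsf4, it stood at 2345 CPM in 23 members with 3 or 4 UMIs and 1101 CPM in 11 cells with 5 or 6. Members with a program sum of 0, 783 of the 1041, had 4998 CPM.

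The cells bore the marks of migratory dendritic cells. All 20 genes of the migratory list passed the filter of a mean CPM of 10 or more. In members Fscn1, the actin bundler fascin, stood at 2294 CPM, Ccl22 at 2154, Ccr7 at 1069 and Relb at 667 CPM. None of the 20 differed from CD8a-high or CD11b-high cells by a log2 ratio of 1 or more. Flt3, at 396 CPM, and Zbtb46, at 202 CPM, are not in the migratory list. Of other dendritic cells, the genes that define a type most sharply were at or near 0, but the summed lists were not. Siglech was at 0 in members, and Xcr1, Clec9a and Cd207 were each below 1 CPM. The 13 genes of plasmacytoid dendritic cells summed to 886 CPM in members (735 to 1050 over the populations, with 3 genes below 1 CPM) and 1100 in CD8a-high cells. The 10 of type 1 conventional dendritic cells summed to 498 CPM (459 to 530, with 5 below 1 CPM) and 472 in CD8a-high cells. The 9 of Langerhans cells summed to 42.0 CPM (34.3 to 54.8, with 5 below 1 CPM), 39.1 in CD8a-high and 79.4 in CD11b-high cells. The 9 of transitional dendritic cells summed to 5221 CPM (4757 to 6085, with 1 below 1 CPM), 4995 in CD8a-high and 6814 in CD11b-high cells. Much of this sum in members was Crip1. With members reduced to 5000 UMIs each, its mean was 19.8 UMIs and 98.7% of them had it. The 9 genes of the neutrophil list summed to 0.439 CPM, the 11 of keratinocytes and stroma to 5.49 CPM and the 10 of mast cells and basophils to 7.02 CPM. The 16 genes of monocytes and macrophages summed to 104 CPM in members (72.2 to 159 over the 4 populations) against 411 CPM in CD11b-high cells (136 to 1474). This list holds the 3 C1q genes, which the rule capped. Genes of the list that the rule did not use and that were below 1 CPM in members included Fcgr1, Mertk, Csf1r, Ly6c2, Ms4a7, Pf4 and Cd14. The 15 genes of type 2 conventional dendritic cells summed to 263 CPM in members (227 to 360). They summed to 316 CPM in CD8a-high, 293 in tag-low program and 639 in CD11b-high cells (413 to 1477). This list holds Itgam, Mgl2 and Sirpa, the genes of CD11b, CD301b and CD172a, whose tags the rule used. The gap to CD11b-high cells is therefore partly set by the rule. Cd209a, Clec10a and Itgam were each below 1 CPM in members. Lymphocyte RNA was present: 12 members had 5 or more UMIs of T and NK cell genes and 8 had 10 or more of B cell genes. The 18 T and NK genes summed to 341 CPM in members (251 to 403) and 694 in CD8a-high cells (554 to 811). The 11 B cell genes went the other way, with 135 CPM in members (27.3 to 203), 69.7 in CD8a-high, 56.2 in CD11b-high and 48.3 in tag-low program cells. Counts without these barcodes are given where they differ.

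The 4 genes proposed as marks of these cells did not all set them apart. Only Arc was highest in members among the 4 groups, though it was not above its level in cells just outside the CD172a limit. Ccl5 and Nfe2l3 were higher in tag-low cells with the program, and Ltc4s was highest in CD11b-high cells. The marks therefore describe tag-low cells as a whole, or tag-low and CD11b-high cells together, more than cells without the program, and the cells are named below by their rule.

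Ccl5 in members was 3842 CPM in BFP+RFP+, 4203 in BFP-RFP+, 6228 in BFP+RFP- and 6178 in BFP-RFP- cells. It was lower in both RFP+ populations than in both RFP- populations. Pooled, it was 5472 CPM in members, 1931 in CD8a-high, 4547 in CD11b-high and 7749 in tag-low program cells. The log2 ratio of members to CD8a-high cells was 1.50 (conditional binomial 95% interval 1.48 to 1.52, a pseudocount of 0.5 UMI), and it was positive in all 4 populations, from 1.13 to 1.65. Against CD11b-high cells it was 0.27 (0.25 to 0.28), but -0.20 in the BFP+RFP+ population and -0.0031 when the BFP+RFP- population was left out, so no direction is given. Against tag-low program cells it was -0.50 (-0.52 to -0.48), negative in 4 of 4 populations.

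Arc in members was 33.4 CPM in BFP+RFP+, 32.0 in BFP-RFP+, 39.9 in BFP+RFP- and 51.4 in BFP-RFP- cells. Members were above the other groups in every population, though some intervals overlapped, with pooled levels of 39.1 CPM against 15.7 in CD8a-high, 22.8 in CD11b-high and 27.4 in tag-low program cells. The log2 ratios were 1.32 (1.10 to 1.54), 0.78 (0.58 to 0.98) and 0.51 (0.24 to 0.81). Within the tag-low field Arc was 42.1 CPM at a program sum of 0, 33.3 at 1 UMI, 24.8 at 2 UMIs, 31.7 at 3 UMIs and 24.8 at 6 UMIs or more. At the CD172a limit it was 29.0 CPM in members with 40 to 49 tags and 49.6 CPM in cells with 30 to 39. For CD11b it was 27.9 CPM just inside and 24.4 just outside the limit, and for CD8a 21.8 and 24.9. For CD301b it was 48.6 and 38.7 CPM, and for Tnfsf4 10.6 and 14.0 CPM.

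Ltc4s in members was 34.0 CPM in BFP+RFP+, 65.4 in BFP-RFP+, 55.2 in BFP+RFP- and 85.0 in BFP-RFP- cells. BFP- members were higher than BFP+ members in both RFP states, although within RFP- the ratio of BFP+ to BFP- members changed from -0.63 to 0.07 under stricter tag limits. Pooled, Ltc4s stood at 59.3 CPM in members, 31.6 in CD8a-high and 120 in CD11b-high cells. The log2 ratios were 0.91 (0.74 to 1.07) over CD8a-high and -1.02 (-1.14 to -0.90) over CD11b-high cells, each with its sign in 4 of 4 populations.

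Nfe2l3 in members was 27.8 CPM in BFP+RFP+, 35.1 in BFP-RFP+, 34.3 in BFP+RFP- and 44.8 in BFP-RFP- cells. Pooled, it stood at 35.3 CPM in members, 19.3 in CD8a-high, 13.6 in CD11b-high and 43.3 in tag-low program cells. The log2 ratio was 0.87 (0.66 to 1.08) over CD8a-high and 1.37 (1.14 to 1.61) over CD11b-high cells, and positive in 4 of 4 populations in both. Against tag-low program cells it was -0.30 (-0.53 to -0.05), but 0.35 and 0.30 in the BFP-RFP+ and BFP-RFP- populations.

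**Figure D2:**
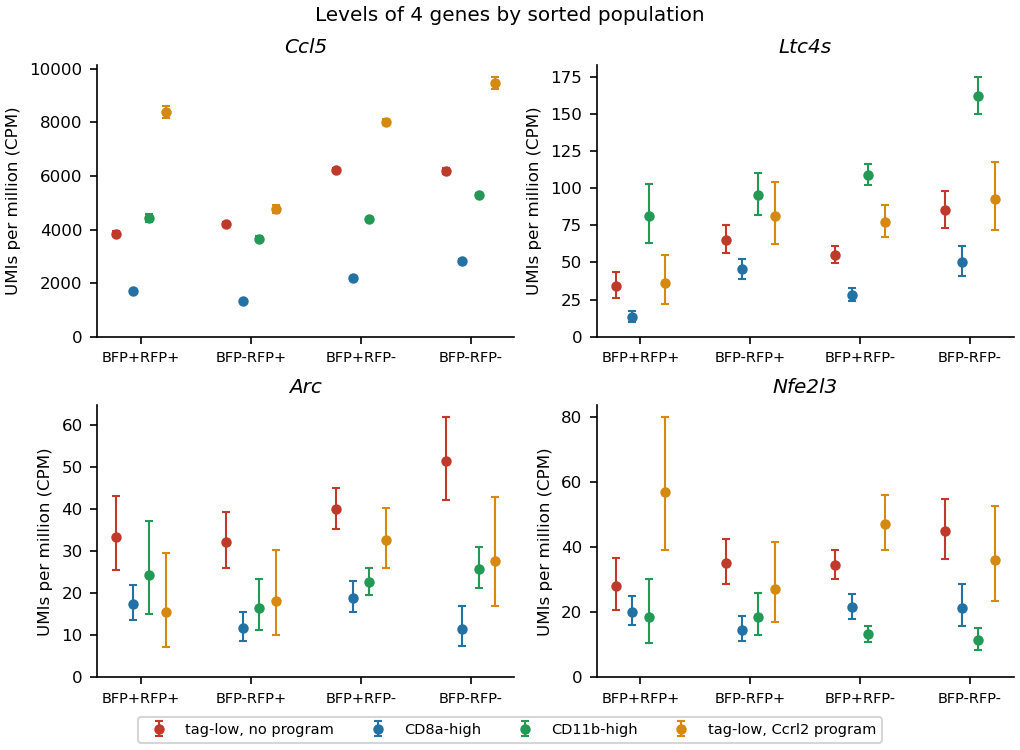
CPM of Ccl5, Ltc4s, Arc and Nfe2l3 (y, from 0) in each sorted population (x), for members (red), CD8a-high (blue), CD11b-high (green) and tag-low program cells (orange), with exact Poisson 95% intervals. Arc of members lies above the other groups in each population, with some intervals overlapping, Ltc4s is highest in CD11b-high cells, and Ccl5 is highest in tag-low program cells.

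To compare shares of cells, each cell was thinned to 5000 UMIs, which left out 68 members, 29 CD8a-high and 68 CD11b-high cells. Ccl5 was then seen in 90.8% of 973 members (95.6% without thinning), Ltc4s in 20.6% (29.6%), Arc in 18.5% (35.2%) and Nfe2l3 in 15.2% (27.2%). In the 79 B-like barcodes left by thinning, set beside them as another cell type, the shares were 49.4%, 6.33%, 1.27% and 1.27%. Median depth was 12853 UMIs over all 1041 members and 6145.5 UMIs over all 122 B-like barcodes, both with the cells that thinning left out. B-like barcodes were taken by B cell genes alone, include 8 members and held 1715 CPM of the type 2 dendritic cell list, so they are not known to lack Ccl5. How many of them are doublets was not tested. Among thinned members the median was 18 Ccl5 UMIs and the middle range 4 to 48, so members differed widely. Ccl5 was the second most over-dispersed gene after Gzma, with a variance 43.3 times its mean. Gzma, a protease gene of cytotoxic lymphocytes, came from 0.206% of members. Pairs of the 4 genes were only weakly related across members. The Spearman correlation over 973 thinned cells, which share a library, was 0.27 for Ccl5 with Nfe2l3, 0.23 for Ccl5 with Ltc4s and 0.02 for Ltc4s with Nfe2l3.

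Against CD8a-high cells, 57 of 6944 genes with a mean CPM of 10 or more were higher in members by a log2 ratio of 1 or more (0.821%) and 128 were lower (1.84%). Against CD11b-high cells, 60 of 6929 were higher (0.866%) and 224 lower (3.23%). Both comparisons together gave 13 genes higher (0.192%) and 30 lower (0.444%) of 6762. A ratio with the same sign in all 4 populations, whatever its size, was common: 39.8% of the genes against CD8a-high, 42.4% against CD11b-high and 32.7% against tag-low program cells had one. Tag groups were cut by the antibody tags and the mRNA is a separate readout, but the counts include genes of the rule, which are no findings. Among the lower genes these were Gpr65, Flrt3, Cd8a and Mgl2 against CD8a-high and Ccrl2, Galc, Gpr65, Flrt3, Mgl2 and Sirpa against CD11b-high cells. Cd8a, Mgl2 and Sirpa encode the tagged proteins CD8a, CD301b and CD172a. The 13 higher genes include the lymphocyte genes Igkc and Gzma, both without the same sign in the 4 populations.

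Among the 13 genes past the fold in both comparisons, Slc41a2, a magnesium transporter, was 61.8, 92.0, 92.8 and 112 CPM in members of hashtags 1 to 4. It was 30.1 CPM in CD8a-high and 36.9 in CD11b-high cells when pooled. The log2 ratios were 1.60 (1.45 to 1.76) and 1.31 (1.17 to 1.46). The rankings against other groups took only genes with the same sign in all 4 populations. Agreement of sign was thus fixed for genes they named and is no support. The level in tag-low program cells, 82.3 CPM, was within the counting error of the 91.6 CPM of members (0.15, -0.01 to 0.32). The next genes by rank missed the fold in 1 or both comparisons. St6gal1, a sialyltransferase, was 152 CPM in members against 84.8 and 65.3 (0.84 and 1.22). Galnt7, which starts O-linked glycans, was 133 CPM against 58.5 and 75.6 (1.18 and 0.81). The guanine exchange factors Trio and Net1 were at 219 and 537 CPM, with log2 ratios of 0.87 and 0.76 over CD8a-high and 0.77 and 0.80 over CD11b-high cells. Slc46a3, a lysosomal carrier, was at 67.6 CPM in members, and its ratios over the 3 groups were 0.72, 0.83 and 0.80.

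Those genes were seen in many cells. A ranking chosen after the values were seen, which allowed the 5 highest cells to hold up to 20% of the UMIs, added genes with larger ratios. Shisa9, an auxiliary protein of glutamate receptors, was 25.6, 41.9, 30.9 and 74.2 CPM in members of the 4 populations in the same order. It stood at 6.35 CPM in CD8a-high and 12.4 in CD11b-high cells, with log2 ratios of 2.63 (2.32 to 2.95) and 1.67 (1.43 to 1.91). BFP-RFP- members were highest. Cavin1, a coat protein of caveolae, was at 39 CPM in members, higher by 2.06 and 1.54. Frmd5 (1.59 and 1.73) and Psd3, an Arf6 exchange factor (1.44 and 1.75), followed the same order. Tex14, known from germ cell bridges, was higher than in all 3 groups: 43.6 CPM in members against 18.2, 18.2 and 17.2. Against tag-low program cells, Shisa9 stood at 0.84, Frmd5 at 0.59 and Cavin1 at 0.29, all short of the fold.

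**Figure D3:**
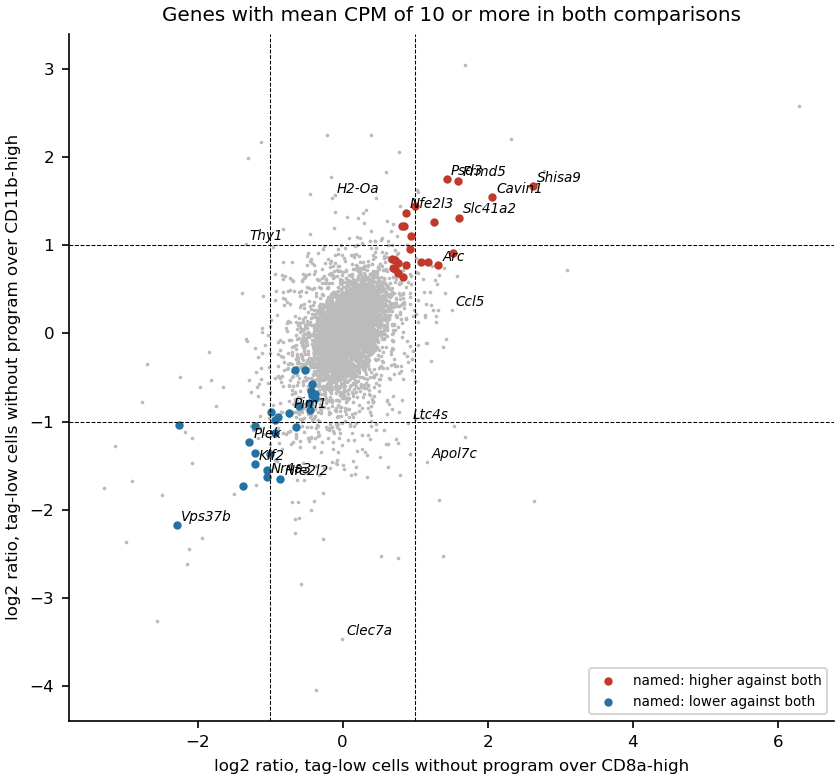
Each point is a gene with a mean CPM of 10 or more in both comparisons; x is its log2 ratio of members to CD8a-high cells and y that to CD11b-high cells, with dashed lines at -1 and 1. Shisa9, Cavin1, Frmd5, Psd3 and Slc41a2 lie at the upper right, Vps37b at the lower left, Ltc4s and Apol7c are higher than in CD8a-high and lower than in CD11b-high cells, and Clec7a lies far below 0 on y alone.

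The lower genes ranked first by the rule had ratios short of the fold in both comparisons. Pim1, a kinase induced by cytokine receptors, was 219, 267, 185 and 199 CPM in members of the 4 populations. It was 349 CPM in CD8a-high and 390 in CD11b-high cells, with log2 ratios of -0.74 (-0.80 to -0.67) and -0.90 (-0.96 to -0.83). The paracaspase gene Malt1 (-0.44 and -0.65), Zfp36, whose product destabilises cytokine mRNAs (-0.43 and -0.70), and the G protein regulator Rgs1 (-0.38 and -0.68) also had negative ratios. From the later ranking, Vps37b, a subunit of the ESCRT-I complex, was 12.7 CPM in members against 62.0 and 57.0 (-2.29 and -2.17). Plek, which encodes pleckstrin (-1.29 and -1.24), and Nr4a3, an orphan nuclear receptor (-1.05 and -1.63), were lower as well. Nfe2l2, the gene of NRF2, was at 26.3 CPM in members, 47.8 in CD8a-high and 82.7 in CD11b-high cells, the reverse order of its relative Nfe2l3.

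The tag-high groups contain cells with the program, since only members were limited in it. Their mean program sum at 5000 UMIs was 0.568 in CD8a-high and 1.01 in CD11b-high cells against 0.143 in members. Limiting them to a sum below 3, as an alternative chosen after the data were seen, left 728 and 616 cells. Zfp36 then stood at -0.07 and -0.26, Crem at -0.34 and -0.30 and Plek at -0.82 and -0.57. Nr4a3 stood at -0.65 and -1.09, and Vps37b at -2.28 and -1.84. Of the higher genes, Slc41a2 stood at 1.87 and 1.70, Ccl5 at 1.83 and 0.65 and Tex14 at 1.14 and 0.99.

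Activity-regulated and immediate early genes, 22 in the list, were mostly lower in members, again depending on the program. Against tag-low program cells, 10 of the 18 measured members of the list were lower by 1 or more and none higher (median -1.19, against 0.02 over all genes tested). In that comparison 2.82% of all genes were lower and 0.317% higher. Against CD11b-high cells 9 of 18 were lower and none higher (median -0.98, against 0.03, and 3.23% of all genes lower). Against CD8a-high cells 1 of 17 was lower, Nr4a3, and 1 higher, Arc (median -0.33, against 0.03). There 1.84% of all genes were lower and 0.821% higher. Fos, a subunit of the AP-1 factor, was 78.5, 93.0, 87.4 and 97.1 CPM in members of the 4 populations and 360 CPM in tag-low program cells. The log2 ratio was -2.02 (-2.12 to -1.91). Atf3 (-2.53), Nr4a2 (-2.38) and Btg2 (-1.93) had ratios of like size. With CD11b-high cells limited in the program, Fos was at 0.01, Nr4a2 at -0.05 and Atf3 at -0.71, while Fosl2 was still at -2.12. These genes also respond to cell handling, and the list of dissociation stress and heat shock stood beside them at a median of 0.04 against tag-low program cells, with 0 of 11 measured genes past the fold. The part of handling was not tested.

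**Figure D4:**
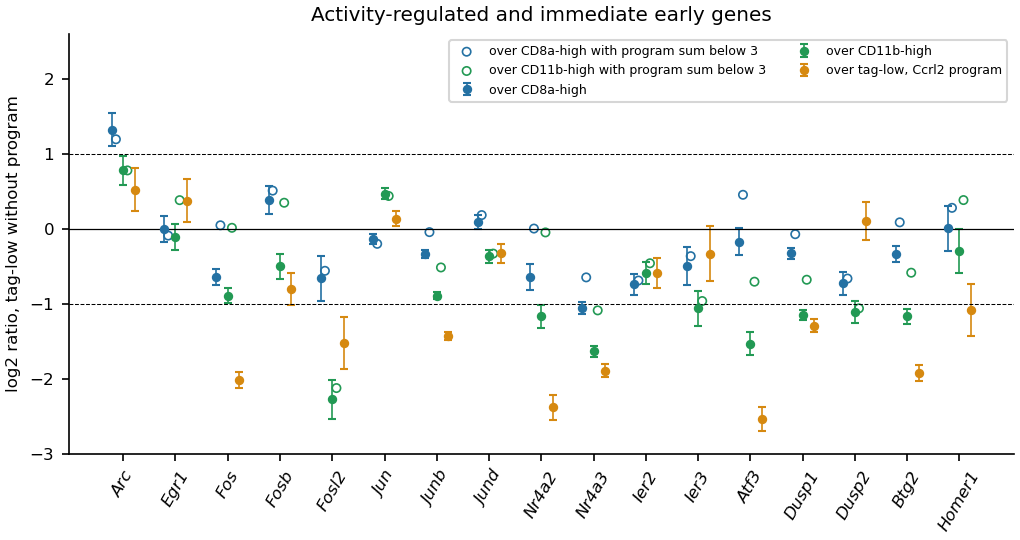
Log2 ratio (y) of members to CD8a-high (blue), CD11b-high (green) and tag-low program cells (orange) for 17 activity-regulated and immediate early genes measured in all 3 comparisons, with conditional binomial 95% intervals. Open circles give the ratios after limiting the tag-high groups to a program sum below 3; Arc is the only one of the 17 with all 3 intervals above 0, while Fos and Nr4a2 move to about 0 against the limited groups.

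Several immune genes were past the fold over CD8a-high cells. H2-M2, a class Ib MHC gene, was 289 CPM against 109 (1.41), Slamf1, an adhesion receptor of the SLAM family, 101 against 41.0 (1.30), and Il18, an inflammasome cytokine, 36.1 against 13.7 (1.40). Mx1, an interferon-induced GTPase, was 40.8 against 15.1 (1.43), and Il13ra1, a receptor chain for IL-4 and IL-13, 57.4 against 28.0 (1.04). Tesc (-1.01) was lower, and Tubb2b, a tubulin (-0.996), the class II exchange factor chain H2-DMa (-0.72) and the costimulatory ligand gene Icosl (-0.70) were short of the fold. The T and NK list was also lower, with 9 of its 11 measured genes below -1 and a median of -2.76, beside 1.84% of all genes lower. Genes could pass the filter on mean CPM through CD8a-high cells alone, so this count and median are partly set by it. Gzma was higher, with 508 of its 509 UMIs in members lying in the BFP+RFP- population. CD8a-high cells held 95 of the T and NK-like barcodes, and CD8a is itself a T cell antigen. Without T, NK and B-like barcodes and the deepest 5% of cells, 56 genes rather than 128 were lower in members, and Cd3d changed from -2.94 to 0.74.

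The genes past the fold below CD11b-high cells included the following. Clec7a, the receptor dectin-1, was 3.34, 5.11, 14.3 and 9.81 CPM in members of the 4 populations and 113 CPM in CD11b-high cells, a log2 ratio of -3.46 (-3.73 to -3.22). Il1b was 57.6 against 289 CPM (-2.33), Ptgs2, an inducible prostaglandin synthase, 9.07 against 65.1 (-2.84), and Cd1d1, which presents lipids to NKT cells, 57.8 against 158 (-1.45). Vdr, the vitamin D receptor and so the target of MC903, was 18.9, 16.7, 17.1 and 18.2 CPM in members and 55.2 CPM in CD11b-high cells (-1.66, -1.88 to -1.46). It was 25.3 CPM in CD8a-high cells. Aldh1a2, which makes retinoic acid, was 14.0 against 44.0 CPM (-1.65), and Irf8 85.2 against 204 (-1.26). Higher than in CD11b-high cells were H2-Oa, a regulator of class II peptide loading (122 against 41.9 CPM, 1.54), the transcription factor gene Myb (55.3 against 15.5, 1.83), the IL-9 receptor gene Il9r (46.0 against 13.4, 1.77) and Sned1, a matrix protein (118 against 24.9, 2.25). The same sign in all 4 populations was a condition for naming these 4 genes.

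Among chemokines, 6 of the 14 listed were measured against CD8a-high cells. Of these 1, Ccl5, was higher by 1 or more and none lower (0.821% of all genes higher and 1.84% lower). Against CD11b-high cells 5 of 9 measured were lower: Ccl6, Ccl9, Cxcl9, Cxcl10 and Cxcl2 (median -1.25 beside 0.03, and 3.23% of all genes lower). A gene was measured by the mean CPM of both groups, so genes high in CD11b-high cells alone could pass. This count and this median are therefore partly set by the filter and are no support. Cxcl10, an interferon-induced chemokine, was 15.6 CPM in members and 119 in tag-low program cells (-2.93). Ccl17, a ligand of CCR4, was 350 CPM in members against 634 in CD11b-high cells (-0.86), whereas Ccl22, another CCR4 ligand, was 2154 against 1755 (0.30). Of 13 leukotriene synthesis genes, 6 were measured against CD11b-high cells. Of these 2 were lower, Ltc4s and the phospholipase gene Pla2g4a (-1.02), beside 3.23% of all genes. Alox5, the 5-lipoxygenase needed to make leukotrienes, was at 0.146 CPM in members, and its activator Alox5ap at 2.05 CPM. None of the 5 leukotriene receptor genes passed the filter in any comparison.

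MHC class II genes differed little but in order. Against tag-low program cells all 12 measured genes of the list had positive ratios, none past 1, with a median of 0.36 beside 0.02 over all genes. Against CD11b-high cells 10 of 12 were positive (median 0.30, beside 0.03), and against CD8a-high cells 10 of 12 were negative (median -0.17, beside 0.03). The medians over all genes were above 0, so most genes had positive ratios in each comparison. Ciita, the master regulator of class II transcription, was 152, 109, 145 and 82.7 CPM in members of the 4 populations. It stood at 128 CPM in members, 138 in CD8a-high, 69.4 in CD11b-high and 74.4 in tag-low program cells.

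Against tag-low cells with the program, the nearest cells, 22 of 6945 genes were higher by 1 or more (0.317%) and 196 lower (2.82%), the latter with the 4 program genes of the rule. The first count depends on the BFP+RFP- population, the largest, without which it was 56. Ccr7 was 1108, 1011, 1068 and 1117 CPM in members of the 4 populations and 2498 CPM in program cells (-1.22, -1.26 to -1.19). The 4 populations of members lay close together in Ccr7, all below the program cells. Id2, a transcriptional regulator of dendritic cells, was 766 against 1914 CPM (-1.32), and Klf4 20.05 against 79.3 (-1.98). Txnip was higher in members (1.25), and the signalling genes Map3k3 (0.92) and Stat5a (0.88) and the tetraspanin gene Cd82 (0.99) were short of the fold. Cish, a STAT5-induced inhibitor, was 22.6 against 10.4 CPM (1.11, and 0.78 at the lowest of the alternatives).

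Reporter mRNA in members followed the sort. BFP was 19.5 CPM in BFP+RFP+, 7.80 in BFP+RFP- and 2.04 in BFP-RFP+ members, and no BFP UMI was seen in 2141528 mRNA UMIs of BFP-RFP- members. The tdRFP feature was 23.9 and 22.1 CPM in BFP+RFP+ and BFP-RFP+ members against 0.147 and 0.934 in their RFP- counterparts. Tnfsf4 was capped by the rule, so its levels among members are no result.

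Within members, BFP+ and BFP- cells differed in 118 of 6906 genes in the RFP+ state (1.71%) and 83 of 6949 in the RFP- state (1.19%). In both states 8 genes were lower by 1 or more (0.120%) and 1 was higher (0.0150%), which was Tnfsf4, a gene of the rule and so no finding. No class II gene was past the fold between BFP+ and BFP- members. Positive ratios were found in 10 of 12 within RFP+ (median 0.45, beside -0.05 and 43.3% positive over all genes) and 9 of 12 within RFP- (median 0.37, beside -0.07 and 39.0% positive). H2-Oa was 150 and 143 CPM in BFP+RFP+ and BFP+RFP- members and 78.3 and 89.7 CPM in BFP-RFP+ and BFP-RFP- members. It was named for the size of this difference, so the order of these values is no support. The log2 ratios were 0.93 (0.68 to 1.20) and 0.67 (0.45 to 0.91), although the first fell to -0.25 under the stricter tag limits. H2-Aa stood at 0.69 and 0.47 and Ly86, a partner of the receptor RP105, at 0.76 and 0.55. From the lists and the later ranking, the gene of apolipoprotein L7c, Apol7c, was lower in BFP+ members (-1.90 and -1.22, and -0.71 and -0.93 under the stricter limits). Apoe (-1.37 and -1.28) stood at -0.01 and 1.90 under those limits and Dll4, a Notch ligand (-1.07 and -1.50), at -1.66 and 2.48, so no direction is given for them. Ltc4s stood at -0.94 and -0.63, with the change of sign given above, and Shisa9 at -0.70 and -1.27. The populations also lay in different clusters of members, described last: the cluster led by Shisa9 and Frmd5 held 29.3% of BFP-RFP- and 11.9% of BFP+RFP+ members.

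RFP+ and RFP- members differed in 98 of 6852 genes within BFP+ (1.43%) and 135 of 7022 within BFP- (1.92%). In both states 7 genes were higher (0.105%), the reporter feature tdRFP among them, and 5 lower (0.0748%). The genes named here come from the lists and the later ranking, apart from Ccl5. Thy1 came from the later ranking against CD8a-high cells, not from that for RFP. Thy1, a glycoprotein of T cells and some other cells, was 80.8 and 102 CPM in BFP+RFP+ and BFP-RFP+ members and 14.6 and 14.0 in their RFP- counterparts, with ratios of 2.47 (2.09 to 2.85) and 2.85 (2.32 to 3.46). Despite these ratios Thy1 was absent from the later ranking for RFP, which let the 5 highest cells hold at most 20% of UMIs. Its UMIs were thus concentrated in few RFP+ members, and how much of the difference they carry was not tested. Gpr183, an oxysterol receptor that positions immune cells, was 486 and 591 CPM against 247 and 216 (0.98 and 1.45), Cd200 256 and 222 against 117 and 125 (1.14 and 0.83) and Tubb2b 213 and 133 against 98.4 and 72.9 (1.11 and 0.86). In CD8a-high cells Thy1 was 106 CPM and Tubb2b 233 CPM. The cluster of members led by Tesc and Tubb2b held 26.7% of BFP+RFP+, 13.7% of BFP-RFP+, 13.2% of BFP+RFP- and 8.62% of BFP-RFP- members. Dll4 was higher in RFP+ members (1.88 and 1.45, and 0.83 and 4.96 under the stricter tag limits). Ccl5 stood at -0.70 and -0.56, past the fold in neither state. Under the stricter limits 3 further genes shrank in 1 state: Irf8 (-0.87 and -0.73) to -0.03 within BFP+, Zmynd15 (-1.14 and -0.78) to -0.12 within BFP- and Apol7c (-1.48 and -0.79) to -0.60 within BFP+. Aif1 stood at -1.13 and -1.40, the second value becoming 0.12 under the stricter tag limits, so no direction is given for it.

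Members were not uniform. Leiden clustering of their mRNA without the rule's genes gave 7 clusters of 208, 200, 158, 149, 149, 95 and 82 cells. The genes that define clusters are no result, and their levels are given as a description of how the 4 genes vary. Ccl5 was 9406, 6545, 2581, 1490, 11664, 853 and 5761 CPM in clusters 1 to 7. Clusters 1, 2 and 5 held most of it and also the highest Arc (65.9, 51.4 and 68.3 CPM) and Nfe2l3 (37.8, 80.3 and 66.0 CPM). Ltc4s was highest in clusters 5 and 1 (110 and 88.7 CPM) but also 83.8 CPM in cluster 3, where Ccl5 was 2581 and Nfe2l3 5.50 CPM. Cluster 2 was led by Shisa9, Frmd5, Slc41a2 and Psd3. Cluster 3 was led by Ccl22 and Cd40, cluster 4 by Tesc and Tubb2b with a median of 64 CD8a tags, cluster 6 by Cotl1 and Cst3 with 72 CD11b tags, and cluster 7 by Ccr7, Zfp36 and Id2. Cluster 7 held 7 of the 8 B-like and 6 of the 12 T and NK-like members. All 7 clusters contained cells of each population, in the unequal shares given for clusters 2 and 4 beside the reporter comparisons.

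**Figure D5:**
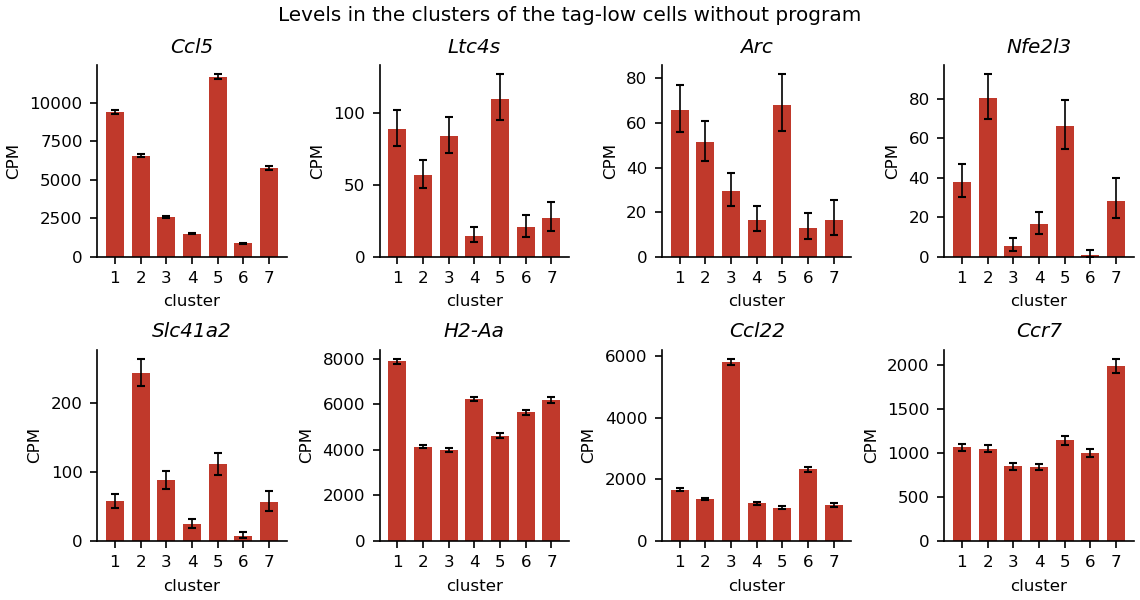
CPM (bars from 0, exact Poisson 95% intervals) of 8 genes in the 7 clusters of members (x). Ccl5, Arc and Nfe2l3 are highest in clusters 1, 2 and 5, Ccl22 in cluster 3 and Ccr7 in cluster 7.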

How the data were processed

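The deposited values are raw UMI counts for 22548 genes, 4 antibody tags and 4 hashtags in 6079 distinct barcodes, which the mRNA, antibody and hashtag libraries share. Per the file headers, Cell Ranger 7.0.0 produced the matrix; GRCm39 (mm39) is the build listed in the submitters' processing notes. How the authors called cells is not given in the sources used. Gene symbols are those of the deposited feature list, and 22404 IDs were also in the mouse gene name table. The labels name the CD172a and CD301b antibodies as TotalSeq-C and TotalSeq-B and the others as TotalSeq-A, and whether capture of these tags differed was not tested.

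Of the barcodes, 5380 had 1 hashtag with 80% or more of hashtag UMIs and 699 (11.5%) did not, and 361 failed the quality limits. No doublet caller was run. If all barcodes below 80% were doublets, 294 doublets of the same population (5.47%) would remain among the cells with 1 hashtag.

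Counts were summed per group and hashtag population with Python 3.11.15, numpy 2.4.6, scipy 1.17.1 and pandas 2.3.3, and scaled to CPM. Tag and hashtag UMIs were left out of mRNA totals. The log2 ratios, computed from the deposited counts, used a pseudocount of 0.5 UMI. For a level the 95% interval is an exact Poisson one, for a share an exact Clopper-Pearson one, and for a ratio a conditional binomial one. A gene was past the fold at a log2 ratio of 1 or more in size among genes with a mean CPM of 10 or more. The mean was that of both groups compared, so a gene could pass through the group where it was high. Counts and medians of the lists are partly set by this filter. Code was tested on simulated data. Members were clustered with the Leiden method (python-igraph 0.11.9, scikit-learn 1.9.0), and figures were drawn with matplotlib 3.10.9. TMM factors came from edgeR 4.0.16 in R 4.3.3.

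Genes were named by a rule: the largest ratios among genes with a mean CPM of 20 or more, whose 5 highest cells held at most 5% of UMIs, with the same sign in 4 populations, plus genes of the lists. Within members 200 or more UMIs were required. A further ranking, with a limit of 20%, was chosen after the values were seen. The members, lists and markers were chosen with earlier results of these data known. Alternatives changed the hashtag call, tag limits, program limit, depth, weighting, scaling, pseudocount, filter, mitochondrial limit, comparison groups and populations included.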

Additional observations from a re-analysis of the deposited data

Results flagged for a closer look

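Among 2124 pairs of a gene and a comparison, 8 had counting intervals above 0 in both populations of one reporter state and below 0 in both populations of the other. The pairs came from 708 genes, those named by the rankings or held in the lists. Capsl, Htr7 and Mylk had been named as higher in RFP+ members and Napsa as higher in BFP+ members. Their differences below are therefore partly set by that choice. Apol7c and P3h2 had been named as lower in RFP+ members. The difference between states was not tested, since each population is 1 sample. The log2 ratios are given in the order of hashtags 1 to 4: both reporters, RFP alone, BFP alone and neither.

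Members over tag-low program cells differed between RFP+ and RFP- populations for 3 genes. Apol7c stood at 2.40, 1.38, -0.53 and -0.44. Htr7, a serotonin receptor, stood at 0.51, 0.55, -0.30 and -0.80. Nfkb1 stood at 0.42, 0.18, -0.27 and -0.28. Members over CD11b-high cells differed in the same way for Capsl (0.89, 1.08, -0.59 and -0.76), the lipid carrier gene Fabp5 (0.32, 0.25, -0.81 and -0.56) and Mylk, a myosin light chain kinase (0.77, 0.45, -0.34 and -0.61).

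Members over tag-low program cells differed between BFP+ and BFP- populations for 2 genes. Napsa, an aspartic protease, stood at 1.12, -1.06, 1.07 and -0.92. P3h2, a collagen prolyl hydroxylase, stood at -1.18, 0.97, -0.42 and 2.45. The tag-low program group held 44 to 50 cells in 3 of the populations.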

How the results depend on the processing

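No paired analysis was possible because every hashtag marks 1 sample only, with no repeats. Fewer cells, or fewer or more genes tested, moved the counts most. With stricter tag limits 290 members were left. The counts then were 109 genes higher than in CD8a-high, 106 than in CD11b-high and 48 than in tag-low program cells, and 664 and 507 past the fold for BFP within RFP+ and RFP-, and 574 and 811 for RFP within BFP+ and BFP-. With a mean CPM of 50 or more, 13 genes were higher and 13 lower than in CD8a-high, 12 and 66 than in CD11b-high and 0 and 91 than in tag-low program cells, and the reporter counts in the order above were 8, 12, 8 and 9. With no filter they were 1537 and 1859, 1631 and 2049, 845 and 1650, and 2250, 2118, 2162 and 2946. Thinned to 5000 UMIs per cell, the reporter counts were 374, 238, 275 and 308, and 76 genes were higher than in tag-low program cells. That last count was also 54 in cells with 8000 to 20000 UMIs, 42 with the same weight for each cell and 23 to 56 when a population was left out, 56 being without BFP+RFP- cells. BFP within RFP+ gave 209 genes at a program sum of 0, 191 with the same weight for each cell and 72 with a pseudocount of 5. Against every CD11b-high cell, 36 genes were higher.

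Without T, NK and B-like barcodes and the deepest cells, 56 genes were lower than in CD8a-high cells, and Ms4a4b (0.0233), Cd3d (0.74), Ets1 (0.30) and Cd247 (0.12) changed sign. Under stricter limits St7 (0.73) and Aif1 (0.12) changed sign for RFP within BFP-, and Apoe (1.90) and Dll4 (2.48) for BFP within RFP-. Leaving out a population gave 50 to 69 genes higher and 113 to 141 lower than in CD8a-high cells, 60 to 65 and 218 to 245 for CD11b-high cells, and 184 to 237 lower than in tag-low program cells. Of 393 gene values, 18 changed sign under at least 1 of up to 19 alternatives. Limiting the tag-high groups to a program sum below 3 was chosen after the data were seen.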

Other observations

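Of 14 measured genes of the TSLP and STAT5 list, 1 was higher (Cish) and 2 lower (Socs1 and Pim1) in members than in tag-low program cells. The median was 0.25 beside 0.02 over all genes, of which 0.317% were higher and 2.82% lower. Of the cytokine list, 3 of 7 measured were lower there, Il1b, Il6 and Il12b, and none higher (median -0.14 beside 0.02, and 2.82% of all genes lower). All 9 measured interferon response genes had negative ratios over CD11b-high cells (median -0.64 beside 0.03). Of these 2 were past the fold, beside 3.23% of all genes lower, with Isg15 at 18.4 CPM against 107 CPM. Genes could pass the filter on mean CPM through CD11b-high cells alone.

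Both genes that follow were chosen after their values were seen. Ptgs2 was higher in BFP+ than BFP- members within RFP+ (1.28) and lower within RFP- (-2.21). Its level was 16.7, 6.81, 4.41 and 20.6 CPM in members of hashtags 1 to 4. Il12b, a subunit of IL-12, was 9.47, 11.6, 13.8 and 49.5 CPM in the same order, so BFP-RFP- members stood above the other 3 populations.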
